A study of Mus musculus with 49 samples.

Results

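Oxidative phosphorylation was followed in whole mouse kidneys through 83 nuclear genes that encode subunits of complexes I to V and a few factors that help to build or couple them. The members were chosen by name alone: every protein-coding gene whose symbol has the form of a Nduf, Sdh, Uqc, Cox4 to Cox8 or Atp5 gene, without Cox8b, and whose level reached 1 FPKM (fragments per kilobase of exon, scaled to the library total, a level corrected for gene length) in at least 3 libraries. Of the 43309 genes of the table, 86 had such a symbol, Cox8b included. Cox8b was left out by name, and Cox7b2 and Cox8c stayed below the filter with highest values of 0.118 and 0.0428 FPKM. The remaining 83 divide into 35 genes of complex I, 4 of complex II, 8 of complex III, 15 of complex IV, 15 of complex V, and 6 factors. Ndufa4 is named as a complex I gene, but its protein was later found with complex IV, where it is counted here. Subunits encoded by mitochondrial DNA were not analysed here, so no comparison between the nuclear and the mitochondrial genome could be made.

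The kidneys came from male C57BL/6NCrl mice, and surgery, where done, took place at 10 to 12 weeks of age. In ischemia-reperfusion injury (IRI) the vessels of both kidneys were clamped for 21 minutes under anesthesia and then released, sham mice had the same surgery without the clamp, and NORM mice had no surgery. IRI kidneys were taken 2, 4, 24, 48 and 72 hours, 7, 14 and 28 days, and 6 and 12 months after surgery, sham kidneys after 4 hours, 24 hours and 12 months (SHAM4h, SHAM24h and SHAM12m), and NORM kidneys at 3, 9 and 15 months of age (NORM3m, NORM9m and NORM15m). Each of the 16 groups had 3 libraries, except IRI6m with 4, which the study calls biological replicates. The label of SHAM12m replicate 3 names sham surgery in 3 of its fields and IRI in its source field, and it was taken as sham.

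The respiratory chain sits in the inner membrane of the mitochondrion. Complex I oxidizes NADH, complex II oxidizes succinate and is at the same time an enzyme of the citric acid cycle, complex III passes the electrons to cytochrome c, and complex IV passes them to oxygen. The protons pumped on the way drive complex V, the ATP synthase, whose F1 head makes ATP while its Fo part turns in the membrane. The kidney ranks among the organs richest in mitochondria, and its proximal tubule and thick ascending limb depend on oxidative phosphorylation to power sodium transport. Most subunits are encoded in the nucleus, and their genes share activators such as the coactivator PGC-1alpha (Ppargc1a), the estrogen-related receptors (Esrra, Esrrb, Esrrg), NRF1 and GABP.

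Start regions of the genes were searched for the letters of 4 elements that these activators and the general factor NF-Y are known to bind. In the RefSeq table of mouse promoters (GRCm38.p6, 250 bases before to 50 bases after each start), 70 of the 83 members were matched, with 76 promoters, and each motif was looked for on both strands. The NRF1 letters GCGCATGCG stood in 8 of the 76 promoters (10.5%) and in 1.75% of all 32851 promoters. The ERR letters TCAAGGTCA stood in 2 (2.63% against 0.423%), the ETS and GABP letters CCGGAAGT in 5 (6.58% against 3.89%), and the letters CCAAT in 33 (43.4% against 37.4%). A match is a description of letters and not a site of binding, and no share was tested. The 32851 promoters were not limited to genes past the filter. Members that fell were not set against the other members, so a link of these letters to any change was not tested. One promoter per complex, picked after the values were seen to show the ERR, NRF1 and ETS letters in a member that was lower at 24 hours, is printed 5′ to 3′ along the gene, with the matches in capitals (CCAAT is not marked):
Ndufa8, chr2:36049289-36049588, minus strand: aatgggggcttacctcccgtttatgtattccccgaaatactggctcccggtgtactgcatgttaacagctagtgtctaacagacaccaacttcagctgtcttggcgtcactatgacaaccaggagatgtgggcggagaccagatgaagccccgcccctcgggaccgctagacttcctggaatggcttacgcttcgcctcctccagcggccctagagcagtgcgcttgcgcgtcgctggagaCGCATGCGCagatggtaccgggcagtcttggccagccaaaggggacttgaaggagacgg
Sdhd, chr9:50603800-50604099, minus strand: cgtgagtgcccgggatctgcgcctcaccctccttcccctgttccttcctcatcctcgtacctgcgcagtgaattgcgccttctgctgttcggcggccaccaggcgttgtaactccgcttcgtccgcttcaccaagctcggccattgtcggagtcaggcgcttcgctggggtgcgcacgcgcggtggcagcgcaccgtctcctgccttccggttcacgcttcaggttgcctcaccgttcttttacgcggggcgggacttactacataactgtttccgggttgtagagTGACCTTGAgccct
Uqcr11, chr10:80406772-80407071, minus strand: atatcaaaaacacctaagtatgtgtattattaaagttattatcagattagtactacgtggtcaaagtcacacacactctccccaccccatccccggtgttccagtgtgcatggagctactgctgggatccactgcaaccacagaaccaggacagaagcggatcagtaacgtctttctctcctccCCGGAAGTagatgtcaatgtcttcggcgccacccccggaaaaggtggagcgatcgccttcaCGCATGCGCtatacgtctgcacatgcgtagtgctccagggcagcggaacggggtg
Cox8a, chr19:7217567-7217866, minus strand: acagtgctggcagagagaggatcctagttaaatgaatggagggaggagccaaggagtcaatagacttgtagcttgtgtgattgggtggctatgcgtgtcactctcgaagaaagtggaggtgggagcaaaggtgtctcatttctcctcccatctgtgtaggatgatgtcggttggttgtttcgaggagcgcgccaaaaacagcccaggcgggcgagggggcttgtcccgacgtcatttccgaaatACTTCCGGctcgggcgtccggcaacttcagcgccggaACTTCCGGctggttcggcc
Atp5g3, chr2:73911277-73911576, minus strand: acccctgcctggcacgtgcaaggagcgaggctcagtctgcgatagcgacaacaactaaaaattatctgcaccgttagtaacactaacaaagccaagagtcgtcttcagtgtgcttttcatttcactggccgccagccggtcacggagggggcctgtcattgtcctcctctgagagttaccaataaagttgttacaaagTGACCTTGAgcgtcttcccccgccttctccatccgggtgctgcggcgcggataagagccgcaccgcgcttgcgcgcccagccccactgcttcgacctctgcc
The NRF1 match in Ndufa8, an accessory subunit of complex I, began 9 bases before the annotated start, on the other strand. In Uqcr11, a small subunit of complex III, an NRF1 match stood 5 bases before the start on the other strand. An ETS match stood 66 bases before it on the strand of the gene. Cox8a of complex IV carried ETS letters 6 bases before and 31 bases after the start, on the other strand. The ERR letters stood on the other strand 36 bases after the start of Sdhd, a membrane anchor of complex II, and 52 bases before that of Atp5g3, which encodes the c subunit of the ATP synthase rotor.

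The depth behind the values, recovered from the FPKM, was lowest in the NORM and IRI6m libraries (10400000 to 23500000 reads), highest in SHAM12m and IRI12m (69900000 to 88200000) and 38000000 to 51900000 reads in all others, so comparisons of IRI6m with SHAM12m, or of IRI kidneys other than IRI6m with NORM kidneys, lie across depth sets, where depth and group cannot be told apart. In whole kidneys, fewer cells of a type and less RNA per cell cannot be told apart. IRI2h replicate 3, IRI48h replicate 2 and IRI72h replicate 2 stood apart from their groups in the members' levels, and counts that moved by over 1.5 times without them are given both ways. Differences are on the log2(FPKM + 0.1) scale with limma's moderated test over 14895 genes, and a gene was called at a Benjamini-Hochberg adjusted p under 0.05.

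In the 3 SHAM24h kidneys the members made up 4.71% to 4.77% of all protein-coding FPKM, where NORM3m kidneys held 4.71% to 5.02% and SHAM4h kidneys 4.65% to 5.23%. At 24 hours after IRI this share was 3.33% to 3.43%, so the groups did not overlap. The share was 4.30%, 5.20% and 4.12% in the 3 IRI48h kidneys, where replicate 2 lay above and the others lay below SHAM24h. Later groups held 4.11% to 4.83% (72 hours), 3.77% to 4.2% (7 days), 4.14% to 4.37% (14 days) and 3.74% to 4.5% (28 days). These 4 groups overlapped one another, and of their 12 kidneys only IRI72h replicate 2 lay above the SHAM24h range.

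**Figure D1:**
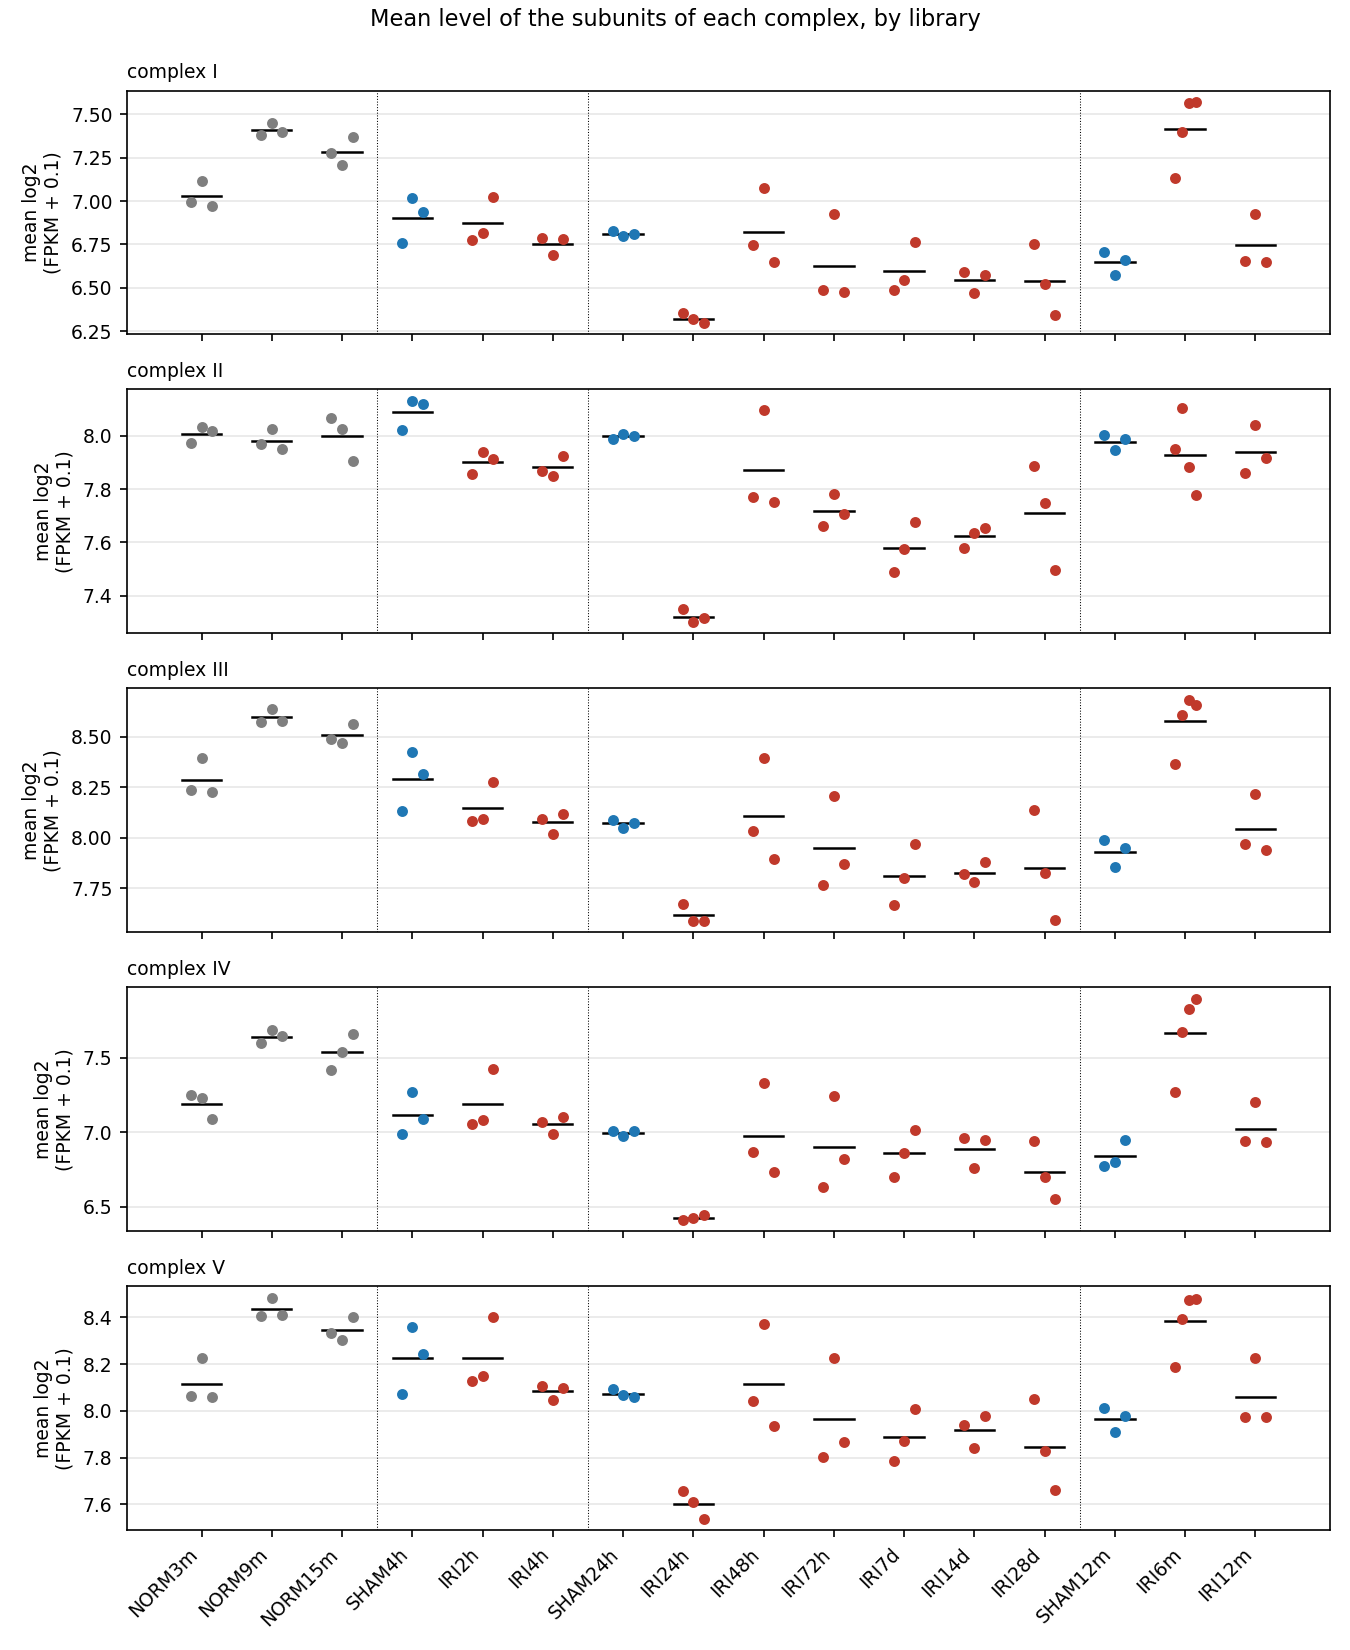
Mean log2(FPKM + 0.1) of the subunits of each complex (vertical axes, 1 panel per complex, scales differ) in every library of the 16 groups; points are libraries (grey NORM, blue sham, red IRI), bars are group means, and dotted lines part the sets that share a sham control. In each complex the 3 IRI24h libraries lay below all SHAM24h libraries, and IRI48h replicate 2 was the highest of its group.

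The fall at 24 hours reached all 5 complexes. Against SHAM24h, 62 of the 83 members were lower and 1 was higher, where 15.4% of all genes tested were lower and 32.5% higher. The median difference of the members was −0.49, against 0.18 for all genes. In 79 of the 83 members every IRI24h kidney lay below every SHAM24h kidney, although 72.3% of all genes had groups that did not overlap in 1 direction or the other. In complex I 26 of 35 members were lower, in complex II 4 of 4, in complex III 5 of 8, in complex IV 11 of 15 and in complex V 12 of 15. Medians per complex ran from −0.46 in complex IV to −0.70 in complex II, and differences between complexes were not tested.

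Complex II, the succinate dehydrogenase, fell in all of its 4 subunits. Sdha, the flavoprotein that oxidizes succinate, was at 186, 182 and 190 FPKM in the IRI24h kidneys and at 350, 349 and 340 FPKM in the SHAM24h kidneys, a log2 difference of −0.90 (SE 0.15, limma adjusted p = 3.3e-06). Sdhb, the iron-sulfur subunit, was at 200, 205 and 201 FPKM against 346, 349 and 337 FPKM (log2 −0.77, SE 0.13, limma adjusted p = 5.6e-06). In both genes the replicates of a group lay within a few percent of each other and the groups stood far apart. The membrane anchors changed less, with log2 differences of −0.63 in Sdhc (131.2 ± 2.36 FPKM in SHAM24h and 84.6 ± 1.57 in IRI24h, SD, n = 3) and −0.41 in Sdhd (273.2 ± 16.0 and 206.1 ± 12.3 FPKM).

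Complex I fell in its catalytic core and in most accessory subunits. All 7 core genes were lower (median −0.56), and of the 28 accessory genes 19 were lower (median −0.46). Ndufs1, the largest iron-sulfur subunit of the core, was at 69.8, 63.8 and 63.7 FPKM in IRI24h and at 118, 116 and 117 FPKM in SHAM24h (log2 −0.83, SE 0.16, limma adjusted p = 5.4e-05). Ndufv1, which binds NADH, was at 144, 144 and 142 FPKM against 240, 234 and 228 FPKM (log2 −0.71, SE 0.09, limma adjusted p = 6.7e-08). Ndufa8, an accessory subunit and one of the genes whose promoter is printed above, was at 142, 136 and 131 FPKM against 189, 186 and 175 FPKM, and its log2 difference of −0.43 was called at an adjusted p of 0.0093 by limma. The exception among the abundant accessory genes was Ndufb6, with 93.8, 98.1 and 87.8 FPKM in IRI24h and 98.2, 90.8 and 88.4 FPKM in SHAM24h. Its groups overlapped, and its log2 difference was 0.01 (limma adjusted p = 0.95). Reads on Ndufb6 cannot be fully assigned, since 39% of its exonic length overlaps Smim27 on the other strand and the libraries kept no strand.

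In complex III the 2 core proteins and the Rieske protein fell. Uqcrc2 was at 198, 185 and 189 FPKM against 292, 292 and 299 FPKM in SHAM24h (log2 −0.62, SE 0.11, limma adjusted p = 1.1e-05), and Uqcrc1 differed by −0.49. Uqcrfs1, the Rieske iron-sulfur protein that hands electrons to cytochrome c1, was at 265, 238 and 250 FPKM against 376, 372 and 368 FPKM (log2 −0.57, SE 0.12, limma adjusted p = 0.00015). Uqcr11 was at 188, 183 and 185 FPKM against 264, 255 and 262 FPKM, and its log2 difference of −0.49 had a wider SE of 0.20 (limma adjusted p = 0.036). That call was lost when any 1 of the 6 kidneys was left out, with limma adjusted p of 0.062 to 0.080, although the 2 groups did not overlap. Cyc1, the cytochrome c1 of this complex, whose symbol lies outside the naming rule, was lower by a log2 difference of −0.43. NORM controls ended the calls of Cyc1 (log2 −0.05, limma adjusted p = 0.724) and Uqcrc1 (log2 −0.25, limma adjusted p = 0.0507).

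In complex IV, cytochrome c oxidase, the genes that fell included the forms common to most tissues. Cox8a was at 628, 613 and 597 FPKM in IRI24h and at 918, 877 and 865 FPKM in SHAM24h (log2 −0.53, SE 0.15, limma adjusted p = 0.0036). Ndufa4 was at 616, 588 and 604 FPKM against 838, 801 and 855 FPKM (log2 −0.46, SE 0.14, limma adjusted p = 0.0058). Cox4i1, a regulatory subunit that binds ATP, was at 504, 473 and 500 FPKM against 676, 651 and 668 FPKM (log2 −0.43, SE 0.16, limma adjusted p = 0.021). In each of the 3 genes all injured kidneys lay below all sham kidneys. Cox5a differed by −0.29 (limma adjusted p = 0.023), a call that was lost without any 1 of 4 of the 6 kidneys.

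In complex V the head of the ATP synthase fell together with most of the membrane part. Of the 5 F1 genes 4 were lower (median −0.62) and of the 10 genes of the Fo part and stalk 8 were lower (median −0.49). Atp5a1, the alpha subunit, fell from 1009 ± 19.1 FPKM in SHAM24h to 614.4 ± 19.1 FPKM (SD, n = 3) and had the smallest adjusted p of the members named here (log2 −0.72, SE 0.08, limma adjusted p = 1.5e-09). Atp5b, the catalytic beta subunit, fell from 2025 ± 42.8 to 1321 ± 14.2 FPKM (log2 −0.62, SE 0.10, limma adjusted p = 6.1e-06), a call that quantile normalization ended (adjusted p = 0.137). The genes Atp5g1, Atp5g2 and Atp5g3 encode the same mature c subunit. Atp5g3 was at 709, 678 and 650 FPKM in IRI24h and at 961, 993 and 957 FPKM in SHAM24h (log2 −0.52, SE 0.12, limma adjusted p = 0.00043), whereas Atp5g2 was at 120, 121 and 110 FPKM and at 121, 117 and 121 FPKM (log2 −0.03, limma adjusted p = 0.87). The difference between these 2 changes was not tested.

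Among the 6 factors the directions parted. Atp5sl, whose human counterpart DMAC2 takes part in building the membrane arm of complex I, was at 21.0, 21.2 and 17.6 FPKM against 38.8, 39.5 and 37.8 FPKM (log2 −0.96, SE 0.11, limma adjusted p = 2.9e-09). Its level in SHAM24h lay above that of the other control groups, with 21.5 to 24.9 FPKM in SHAM4h and 23.4 to 27.7 FPKM in NORM3m. Atp5s, a coupling factor of the ATP synthase, differed by −0.62. Uqcc2, an assembly factor for cytochrome b of complex III, was the only member that was higher at 24 hours, with 72.6, 77 and 66.5 FPKM against 42.9, 41.4 and 39.5 FPKM (log2 0.80, SE 0.19, limma adjusted p = 0.00078). Its partners Uqcc1 and Uqcc3 were lower by −0.29 and −0.32, at adjusted p by limma of 0.033 and 0.016, and both calls were lost when single kidneys were left out.

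**Figure D2:**
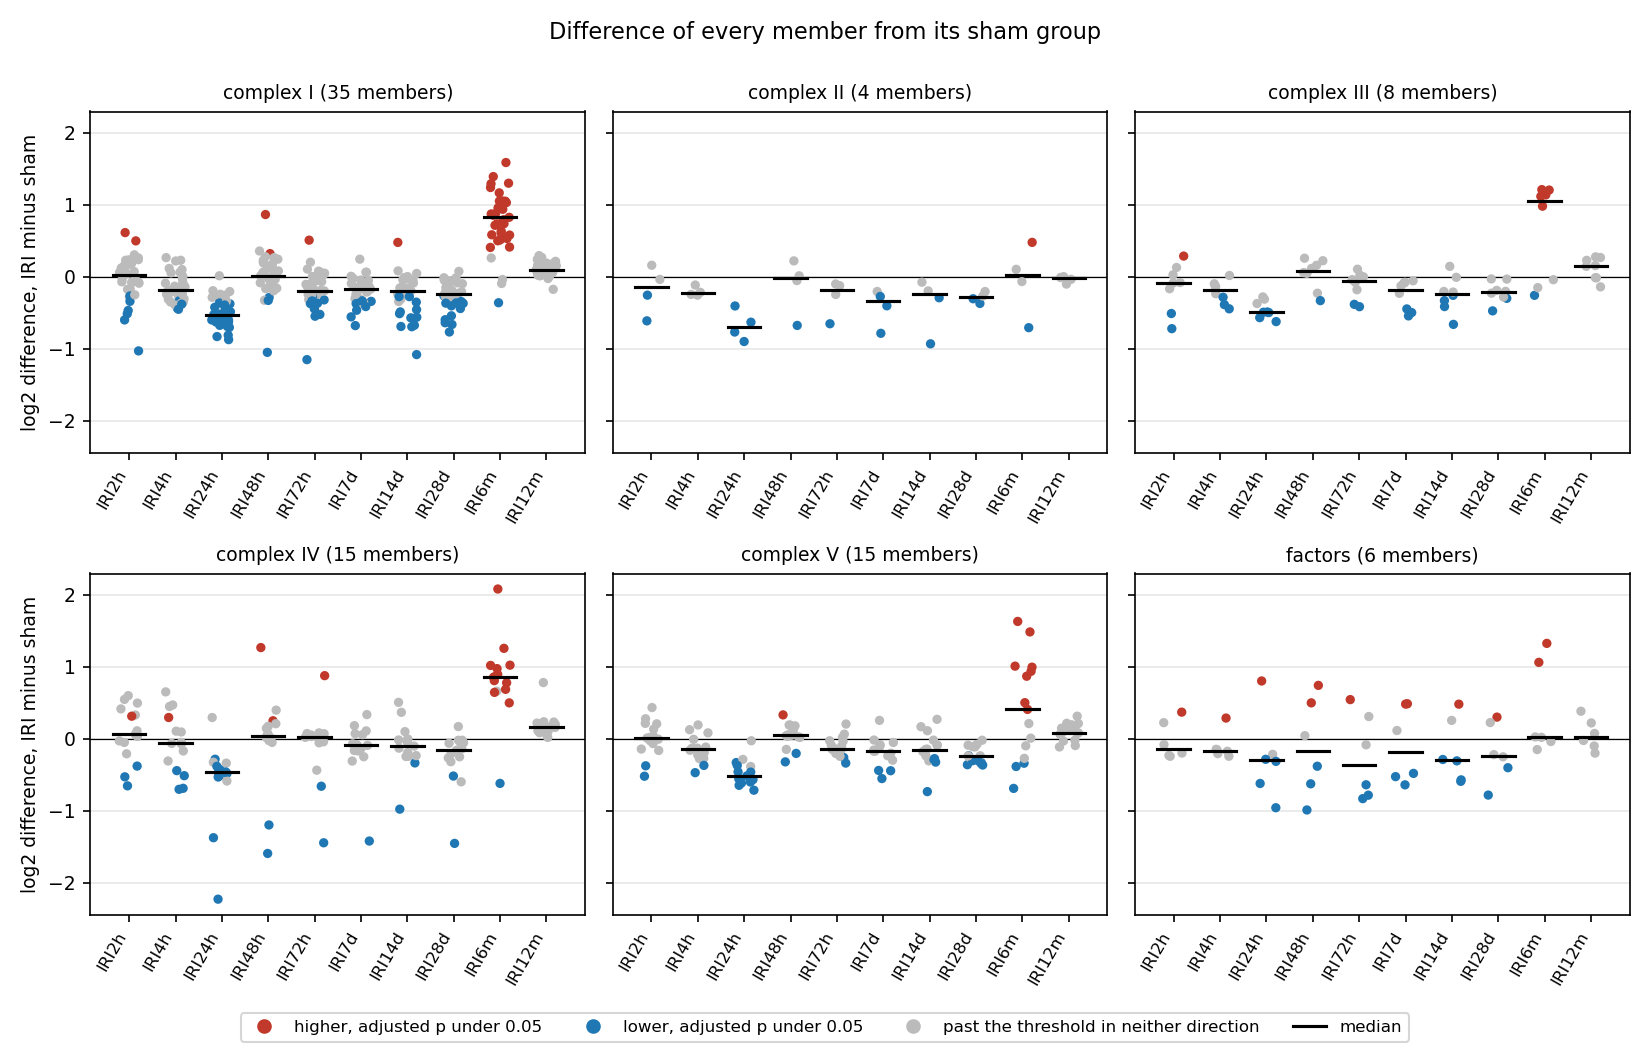
Log2 difference of every member from its sham group (vertical axis) at the 10 times after IRI (horizontal axis), 1 panel per complex; points are members, red called higher, blue called lower and grey not called at a limma adjusted p under 0.05, and black bars are medians. At IRI24h the medians lie between −0.30 and −0.70, at IRI48h they lie near 0 except for the factors, and at IRI6m most members lie above 0.

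Markers of the cells that hold most of the kidney's mitochondria were lower at the same time. Of 10 proximal tubule markers 8 were lower at 24 hours (median −1.11), and their summed level was 1608 to 1959 FPKM in IRI24h and 5064 to 5342 FPKM in SHAM24h. All 5 markers of the thick ascending limb were lower (median −1.04, 993 to 1229 against 2323 to 2441 FPKM), and 3 of 3 of the distal convoluted tubule (median −0.95). Leukocyte markers summed to 56.5 to 71.6 FPKM in IRI24h and to 25.2 to 26.3 FPKM in SHAM24h, and 4 of 11 were called higher and 1 lower. Beside all of these marker counts, 32.5% of all genes were higher and 15.4% lower. The leukocyte sum weighs abundant genes most: over all libraries Lyz2 reached 893 FPKM and no other marker of that list over 51.91 FPKM. All 6 fibroblast markers were higher (median 2.41), with summed levels of 326 to 447 FPKM in IRI24h and 59.9 to 74.6 FPKM in SHAM24h. The members' median of −0.49 lay closer to 0 than the medians of the tubule lists, and the part of the cell makeup in the fall of the subunits was not tested.

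From 24 to 48 hours most subunits rose again. Between IRI24h and IRI48h, 63 of the 83 members were higher and 0 lower, where 7.88% of all genes tested were higher and 17.1% lower. The count of 0 lower stayed 0 under every setting tried. The members' median difference was 0.50, while the median over all genes was −0.14. In 74 members all 3 IRI48h kidneys lay above all 3 IRI24h kidneys, and 50.1% of all genes had groups that did not overlap. The rise rested in part on 1 kidney: without IRI48h replicate 2 the count was 32 instead of 63, and the counts in complexes I, III, IV and V were 13, 2, 5 and 8 instead of 28, 7, 10 and 13. Across the other scalings the count was 48 after quantile normalization (median 0.33) and 64 after rescaling to the protein-coding sum (median 0.42). The balance of short against long genes (the median log2 level of genes under 1000 bp of exon minus that of genes over 4000 bp) moved as well, from −1.04 to −0.61 in IRI24h to −0.52 to −0.35 in IRI48h, with replicate 2 the highest. Over all genes the median difference was 0.12 under 1000 bp and −0.21 over 4000 bp, while the members of these lengths had medians of 0.52 and 0.41. The part of this balance in the rise was not tested. The IRI24h libraries enter this comparison as well as the one with SHAM24h, so the fall and the rise are not independent of each other.

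Sdhb was at 303, 394 and 304 FPKM at 48 hours after 200, 205 and 201 FPKM at 24 hours (log2 0.71, SE 0.13, limma adjusted p = 8.4e-05). Sdhc went from 84.6 ± 1.57 to 134.2 ± 28.8 FPKM (log2 0.64, limma adjusted p = 4.9e-05) and Sdhd from 206.1 ± 12.3 to 319.5 ± 42.4 FPKM (log2 0.63, limma adjusted p = 2.9e-05). Sdha, the partner of these 3 subunits, was at 206, 231 and 213 FPKM after 186, 182 and 190 FPKM and was not called (log2 0.22, SE 0.15, limma adjusted p = 0.27). Of complex II, then, Sdha alone was not called higher between 24 and 48 hours, and whether its change differed from that of its partners was not tested. Atp5g3 was at 1014, 1352 and 986 FPKM after 709, 678 and 650 FPKM (log2 0.71, SE 0.12, limma adjusted p = 3.3e-05). Atp5b rose less, from 1321 ± 14.2 to 1621 ± 94.2 FPKM (log2 0.29, limma adjusted p = 0.034). Quantile normalization put that difference at −0.02, and the call of Atp5b was also lost without any 1 of 5 of the 6 kidneys. All 10 genes of the Fo part and stalk were called higher and 3 of the 5 F1 genes.

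Against SHAM24h, the members at 48 hours spread around no difference. Of the 83 members 7 were higher and 12 lower, shares below those of all genes tested (28.5% higher, 23.1% lower), and in 57 members the 2 groups overlapped (68% of all genes had groups that did not). The median was 0.04, and it changed sign to −0.06 after quantile normalization and to −0.03 after rescaling to the protein-coding sum. The count of members called higher was 4 without SHAM24h replicate 2 or without IRI48h replicate 2, and 12 without IRI48h replicate 3. In complex I 2 members were higher and 3 lower, in complexes II and III 1 each was lower, in complex IV 2 were higher and 2 lower, in complex V 1 was higher and 2 were lower, and of the factors 2 were higher and 3 lower. A difference that was not called does not show that levels were equal, and the spread between IRI48h kidneys was wide.

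Several of the members that lay near sham at 48 hours had been lower a day before. Ndufb10 of complex I differed by −0.00 after −0.69 at 24 hours, Sdhc by 0.01 after −0.63, Uqcrfs1 by 0.06 after −0.57 and Cox8a by 0.02 after −0.53. Uqcr11 (0.05 after −0.49) and Uqcc3 (0.04 after −0.32) lay as near, but their calls at 24 hours were lost without single kidneys. The signs of all 6 at 48 hours changed with the scaling or with the kidneys left out. Sdhb, at 303, 394 and 304 FPKM, had 1 kidney above and 2 below the sham range of 337 to 349 FPKM.

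The 12 members still lower at 48 hours included several catalytic subunits. Sdha had a log2 difference of −0.68 from SHAM24h (SE 0.15, limma adjusted p = 0.00018), and its highest IRI48h kidney, at 231 FPKM, lay far below the lowest sham kidney at 340 FPKM. Atp5b differed by −0.32 (1621 ± 94.2 against 2025 ± 42.8 FPKM, limma adjusted p = 0.0088, lost after quantile normalization at 0.0984). Atp5a1 differed by −0.20 (limma adjusted p = 0.024, lost after quantile normalization at 0.195, in the fit of the 2 groups alone and without any 1 of 4 of the 6 kidneys). With NORM kidneys as the control neither Atp5b nor Atp5a1 was called (adjusted p = 0.596 and 0.753). Uqcrc2 was at 224, 253 and 224 FPKM (log2 −0.33, limma adjusted p = 0.010). In complex I the lower members were Ndufb2 (log2 −1.05, limma adjusted p = 2.3e-06, at only 0.785 to 1.10 FPKM), Ndufv3 (−0.33) and Ndufa10 (−0.29). The call of Ndufv3 was lost without IRI48h replicate 1 or 3. The factors Atp5sl and Atp5s differed by −0.99 and −0.63, close to their differences at 24 hours, and Uqcc1 by −0.38.

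The 7 members above sham at 48 hours came from complexes I, IV and V and from the factors. Ndufb6 was at 179, 178 and 150 FPKM against 98.2, 90.8 and 88.4 FPKM (log2 0.86, SE 0.13, limma adjusted p = 5.3e-07), with the overlap with Smim27 as above. Cox7a2l, counted among the factors, was at 156, 190 and 142 FPKM against 108, 116 and 119 FPKM (log2 0.50, SE 0.11, limma adjusted p = 0.00024). Uqcc2 stayed high at 67.0, 80.5 and 60.8 FPKM (log2 0.74, limma adjusted p = 0.0016). In these 3 genes the groups did not overlap. Ndufb3 (0.32), Atp5g2 (0.33) and Cox5a (0.25) were called less firmly, since each call was lost without IRI48h replicate 2 or without SHAM24h replicate 2, and the Cox5a groups overlapped. Ndufb3 was also lost without SHAM24h replicate 1, with NORM controls and with both early sham groups (limma adjusted p = 0.0526, 0.561 and 0.0504). The Cox5a call was also lost without the other SHAM24h kidneys or IRI48h replicate 1. It was further lost after quantile normalization, after rescaling, without the filter and in the fit of the 2 groups alone (limma adjusted p = 0.168, 0.0929, 0.0632 and 0.137).

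Complex IV has pairs of isoforms that replace each other between tissues, and these pairs were followed gene by gene. Cox6b2, an isoform known from the testis, was at 9.70, 10.8 and 10.1 FPKM in IRI24h and at 13.7, 13.9 and 19.2 FPKM in SHAM24h, and this difference was not called (log2 −0.59, limma adjusted p = 0.055). At 48 hours it was at 34.9, 53.2 and 27.6 FPKM, above every sham kidney (log2 1.27, SE 0.26, limma adjusted p = 8.3e-05), and at 72 hours at 26.7, 24.5 and 34.7 FPKM (log2 0.87, limma adjusted p = 0.0045). At 7 and 28 days it was not called (log2 0.18 and −0.60). NORM controls gave a call of higher at 7 days (log2 1.11, limma adjusted p = 0.00035). So did SHAM4h and SHAM24h together as the control (log2 0.93, limma adjusted p = 0.00048). After quantile normalization it was called lower at 24 hours and 28 days (limma adjusted p = 0.0057 and 0.012). Fits of the 2 groups alone also called it lower at both of these times (limma adjusted p = 0.0059 and 0.014). The sham controls of Cox6b2 also differed from each other, with 4.87, 7.74 and 4.15 FPKM in SHAM4h against the SHAM24h values above (log2 1.5, SE 0.26, limma adjusted p = 1.9e-05). Its common partner Cox6b1 was lower at 24 hours (log2 −0.38, limma adjusted p = 0.041) and at 608, 886 and 521 FPKM at 48 hours, which was not called against 574, 546 and 581 FPKM in SHAM24h (log2 0.21, adjusted p = 0.27).

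Cox6a2 and Cox7a1, isoforms of heart and skeletal muscle, were low in these kidneys and fell further. Cox6a2 was at 0.328, 0.728 and 0.386 FPKM in IRI24h and at 2.86, 2.22 and 2.48 FPKM in SHAM24h (log2 −2.23, SE 0.40, limma adjusted p = 1.8e-05). It was at 0.545, 0.968 and 0.836 FPKM at 48 hours (log2 −1.59, limma adjusted p = 0.0011) and still lower at 28 days (log2 −1.45, limma adjusted p = 0.0045). Cox7a1 was at 7.16, 5.77 and 9.19 FPKM in IRI24h and at 18.3, 21.4 and 17.4 FPKM in SHAM24h (log2 −1.38, SE 0.26, limma adjusted p = 4.8e-05), and at 48 hours at 5.83, 16.2 and 5.80 FPKM (log2 −1.20, limma adjusted p = 0.00026), where replicate 2 stood far above the other kidneys. Brown fat, which also uses Cox7a1, varied between the same kidneys: its markers summed to 0.278, 9.67 and 0.0942 FPKM in IRI48h, highest in replicate 2, to 22.4, 0.0412 and 73.5 FPKM in IRI24h, and to 0.362, 9.26 and 8.52 FPKM in SHAM24h. In IRI24h and IRI48h the kidneys stood in the same order for both, while in SHAM24h and IRI6m they did not. The part of brown fat in Cox7a1 was not tested. Muscle actin and myosin markers were near 0 in all libraries, with at most 1.31 FPKM for Acta1 and 0.09 FPKM or less for Ckm, Myh4 and Myh1. The common forms Cox6a1 and Cox7a2 differed by −0.33 (not called, limma adjusted p = 0.14) and −0.51 at 24 hours and by 0.07 and 0.04 at 48 hours. Cox4i2, an isoform known from the lung, stayed near 1 FPKM in both groups at 24 and 48 hours and was not called (log2 0.29 and 0.40).

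**Figure D3:**
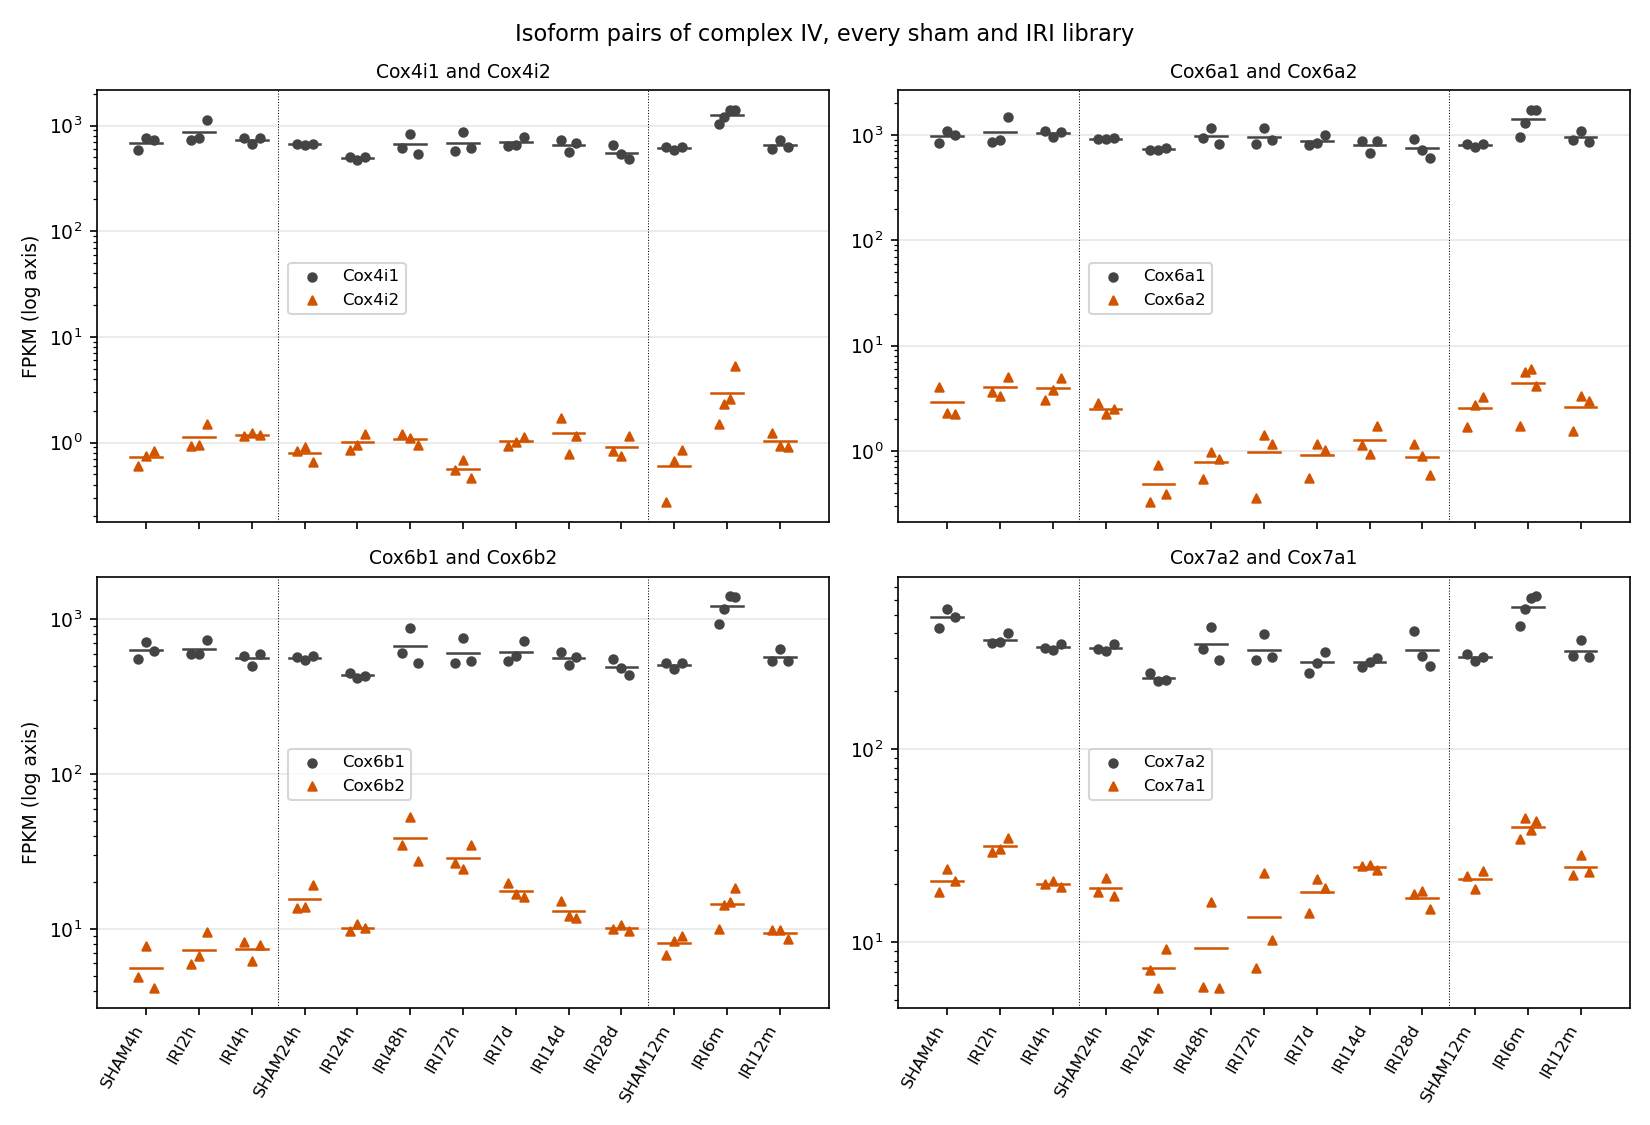
FPKM (vertical axes, log scale) of the isoform pairs Cox4i1 and Cox4i2, Cox6a1 and Cox6a2, Cox6b1 and Cox6b2, and Cox7a2 and Cox7a1 in the sham and IRI groups; points are libraries and bars are group means. Cox6b2 rose above all sham kidneys at IRI48h and IRI72h, while Cox6a2 and Cox7a1 lay below SHAM24h at IRI24h.

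At 2 and 4 hours after IRI the subunits as a group had hardly moved. Against SHAM4h, 15 members were lower and 5 higher at 2 hours (17.9% of all genes lower, 22.1% higher, members' median −0.01), and 13 were lower and 2 higher at 4 hours (10.5% lower, 17.7% higher, median −0.15). Ndufs1 was already low at 2 hours, with 76.1, 88.8 and 39.8 FPKM against 137, 132 and 127 FPKM (log2 −1.03, SE 0.16, limma adjusted p = 5.4e-06, lost in the fit of the 2 groups alone at 0.0523). Sdha was at 263, 300 and 161 FPKM against 361, 363 and 347 FPKM (log2 −0.61, SE 0.15, limma adjusted p = 0.0010), a call also lost in that fit (adjusted p = 0.103). In both genes replicate 3 was the lowest by far, and without it the log2 differences were −0.68 (limma adjusted p = 0.00014) in Ndufs1 and −0.35 (limma adjusted p = 0.046) in Sdha. Uqcrc2 differed by −0.72 with 238, 241 and 166 FPKM against 337, 380 and 334 FPKM (limma adjusted p = 2.9e-06), and by −0.55 without replicate 3. The 5 members higher at 2 hours became 1 without IRI2h replicate 3, 2 without SHAM4h replicate 1 and 9 without IRI2h replicate 1.

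In complex IV, Ndufa4 and Cox7b were lower early than in SHAM4h. Ndufa4 was at 936, 901 and 929 FPKM at 2 hours (log2 −0.53) and at 832, 759 and 866 FPKM at 4 hours (log2 −0.70), against 1337 ± 149 FPKM in SHAM4h (SD, n = 3). Its 2-hour call was lost with NORM controls (log2 −0.23, limma adjusted p = 0.18). It was also lost with both early sham groups as the control (log2 −0.19, limma adjusted p = 0.229). Cox7b was at 222, 216 and 225 FPKM at 4 hours against 308, 422 and 348 FPKM (log2 −0.69, SE 0.13, limma adjusted p = 6.5e-05). The sham controls differed in the same genes, with Ndufa4 (log2 −0.68) and Cox7b (log2 −0.66) lower in SHAM24h than in SHAM4h. Between the 2 sham groups 11 members were lower and 8 higher (6.57% and 26.5% of all genes). The 13 members lower at 4 hours became 3 without SHAM4h replicate 2, 8 without SHAM4h replicate 3 or IRI4h replicate 1, and 5 without IRI4h replicate 2. Between 4 and 24 hours after IRI 59 members were lower and 1 higher, where 13.7% of all genes were lower and 42.9% higher. The members' median was −0.50, against 0.33 for all genes.

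From 72 hours to 28 days fewer members were called than at 24 hours, and they were mostly lower. The counts against SHAM24h, which all 4 times share as a control, were 20 lower and 3 higher at 72 hours (23.1% and 25.4% of all genes), 21 lower and 2 higher at 7 days (14.5% and 33.8%), 28 lower and 2 higher at 14 days (18.9% and 30.9%), and 28 lower and 1 higher at 28 days (9.86% and 22.3%). The members' medians were −0.13, −0.17, −0.20 and −0.24, and those of all genes 0.01, 0.17, 0.09 and 0.09. At 72 hours the 20 lower members were a share close to the background. Without IRI72h replicate 2 the count was 34. The 28 members lower at 28 days became 12 without IRI28d replicate 3, 18 without IRI28d replicate 2 and 15 to 17 without any 1 SHAM24h kidney, and the 28 at 14 days became 18 without IRI14d replicate 1. Between 48 hours and 28 days 31 members were lower and 1 higher (15.2% and 23% of all genes). That comparison was not refitted with single kidneys left out, IRI48h replicate 2 among them.

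Several of the members described above were lower in these weeks. Sdha was at 212, 230 and 219 FPKM at 72 hours, 198, 203 and 201 FPKM at 7 days and 163, 227 and 162 FPKM at 14 days (log2 −0.65, −0.79 and −0.93). By 28 days it was at 263, 292 and 251 FPKM, still below the sham range of 340 to 350 FPKM, and the call was weak (log2 −0.37, limma adjusted p = 0.047, lost without any 1 of 5 of the 6 kidneys). Ndufa10, an accessory subunit of complex I, was at 102, 114 and 118 FPKM at 7 days and at 111, 102 and 78.1 FPKM at 28 days, against 163.8 ± 4.87 FPKM in SHAM24h (log2 −0.56 and −0.77, limma adjusted p = 0.00011 and 1.9e-06). Ndufs1 was at 47.5, 66.6 and 53.3 FPKM at 14 days (log2 −1.08, SE 0.16, limma adjusted p = 1.1e-06), and Atp5b was at 1379 ± 52.7 FPKM at 7 days (log2 −0.55). Atp5sl was at 23.6, 21.7 and 22 FPKM at 28 days (log2 −0.78, limma adjusted p = 3.8e-07), a call lost with NORM controls (log2 −0.20, limma adjusted p = 0.139). All of these kidneys lay below all SHAM24h kidneys. Cox7a2l was the 1 member called higher at 28 days, with 150, 131 and 141 FPKM against 108, 116 and 119 FPKM (log2 0.30, limma adjusted p = 0.032), and without single kidneys this call was lost in 4 of 6 cases. Proximal tubule markers summed to 2983 to 4061 FPKM at 28 days, below the 5064 to 5342 FPKM of SHAM24h, and leukocyte markers to 555 to 845 FPKM, against 25.2 to 26.3 FPKM in SHAM24h. Their part in the members' levels was not tested.

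**Figure D4:**
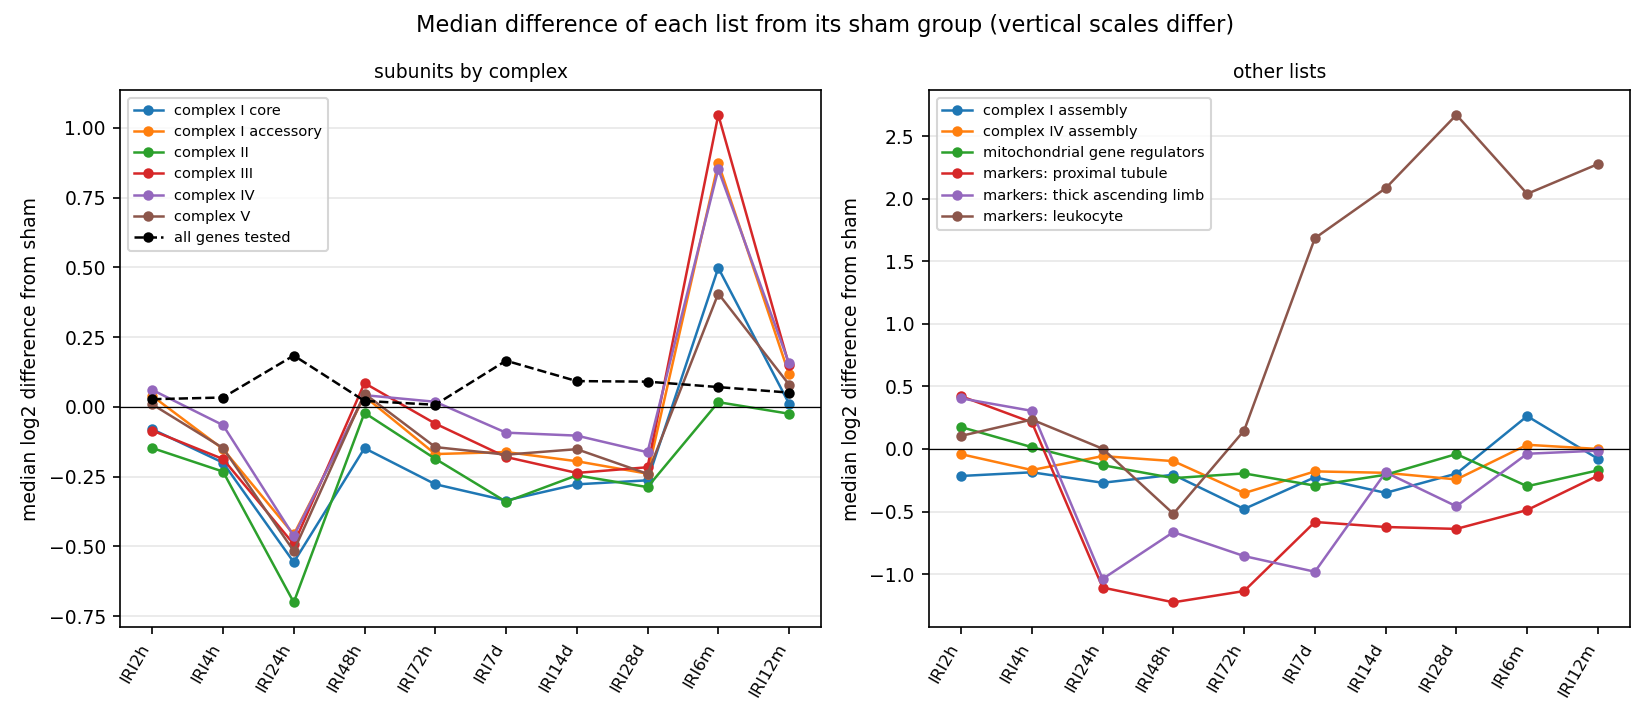
Median log2 difference from the sham group (vertical axes, scales differ) at the 10 times after IRI for the subunits of each complex and all genes tested (left) and for assembly factors, mitochondrial gene regulators and cell type markers (right); each point is the median of a list. At IRI48h the subunit medians lie between −0.15 and 0.09, while the proximal tubule markers have a median of −1.23.

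At 6 months most members of complexes I and IV, and fewer of complexes II, III and V, were higher than in SHAM12m. Of the 83 members 60 were higher and 7 lower (30.4% and 20.9% of all genes), with a median of 0.78 against 0.07 for all genes. Complex I had 31 higher members, among them 27 of the 28 accessory genes, complex III 5 of 8, complex IV 13 of 15 and complex V 8 of 15, while in complex II 1 gene was higher and 1 lower (median 0.02). Atp5k, the e subunit of the Fo part, was at 319, 404, 488 and 495 FPKM against 145, 128 and 135 FPKM (log2 1.63, SE 0.17, limma adjusted p = 3.5e-09). Ndufb7 was at 33.0, 44.3, 57.2 and 58.6 FPKM against 18.9, 16.6 and 18.3 FPKM (log2 1.39). Uqcr11 was at 363, 484, 639 and 654 FPKM against 239, 212 and 225 FPKM (log2 1.21, SE 0.18, limma adjusted p = 1.6e-06). All IRI6m kidneys lay above all SHAM12m kidneys in these genes.

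Altogether 25 members were higher by a log2 difference of 1 or more at 6 months: in complex I Ndufa1, Ndufa2, Ndufa3, Ndufa5, Ndufa12, Ndufa13, Ndufb2, Ndufb5, Ndufb7, Ndufs4, Ndufs6 and Ndufs8, in complex III Uqcr10, Uqcr11, Uqcrb and Uqcrh, in complex IV Cox4i1, Cox4i2, Cox6b1 and Cox7b, in complex V Atp5e, Atp5j2 and Atp5k, and the factors Uqcc2 and Uqcc3. The largest difference was that of Cox4i2, with 1.5, 2.34, 2.57 and 5.31 FPKM against 0.274, 0.664 and 0.857 FPKM (log2 2.08, limma adjusted p = 8.1e-07). The lower members were the large catalytic or core subunits Sdha (258, 258, 186 and 162 FPKM against 342, 353 and 342 FPKM, log2 −0.71, limma adjusted p = 5.9e-05), Atp5b (1281 ± 264 FPKM, n = 4, against 2034 ± 53.7, n = 3, log2 −0.69), Atp5a1, Ndufs1 and Uqcrc2, besides Cox5a (log2 −0.62) and Atp5g2.

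Markers of other cells differed in the same comparison. Leukocyte markers summed to 174 to 755 FPKM in IRI6m and 47.3 to 70.5 FPKM in SHAM12m. Brown fat markers, 4 of 5 called higher (30.4% of all genes), summed to 3.92 to 67.4 FPKM in IRI6m, 0.0119 to 2.49 FPKM in SHAM12m and 0.611 to 20.6 FPKM in NORM9m. Cox7a1 was at 34.5, 44.1, 38.3 and 42.3 FPKM in IRI6m against 22, 18.8 and 23.3 FPKM (log2 0.89, SE 0.25, limma adjusted p = 0.0031). The part of these cells in the members' levels was not tested.

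The differences at 6 months ran with gene length over all genes as well as over the members. Genes under 1000 bp of annotated exon length had a median difference of 0.82 (397 genes), those of 1000 to 4000 bp of 0.28 (5592 genes) and those over 4000 bp of −0.14 (7196 genes). The members' medians in these classes were 0.96, 0.72 and −0.04 (22, 50 and 11 members). At 24 hours the medians of all genes were alike over the 3 classes (0.17, 0.20 and 0.19), and the members lay at −0.37, −0.51 and −0.56. The balance of short against long genes was −0.59 to 0.31 in IRI6m, −1.39 to −1.28 in SHAM12m and −0.40 to −0.30 in NORM9m. All IRI6m libraries lay above all SHAM12m libraries in this balance, with 1 below and 3 above the NORM9m range. Both groups had surgery at the same age, so they also differ in age and in time since surgery (6 against 12 months), and injury, age, depth set and length balance cannot be told apart in this comparison. Rescaling to the protein-coding sum took the median from 0.78 to 0.53, and without IRI6m replicates 3 and 4 it was 0.58, with 52 members higher and 5 lower.

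**Figure D5:**
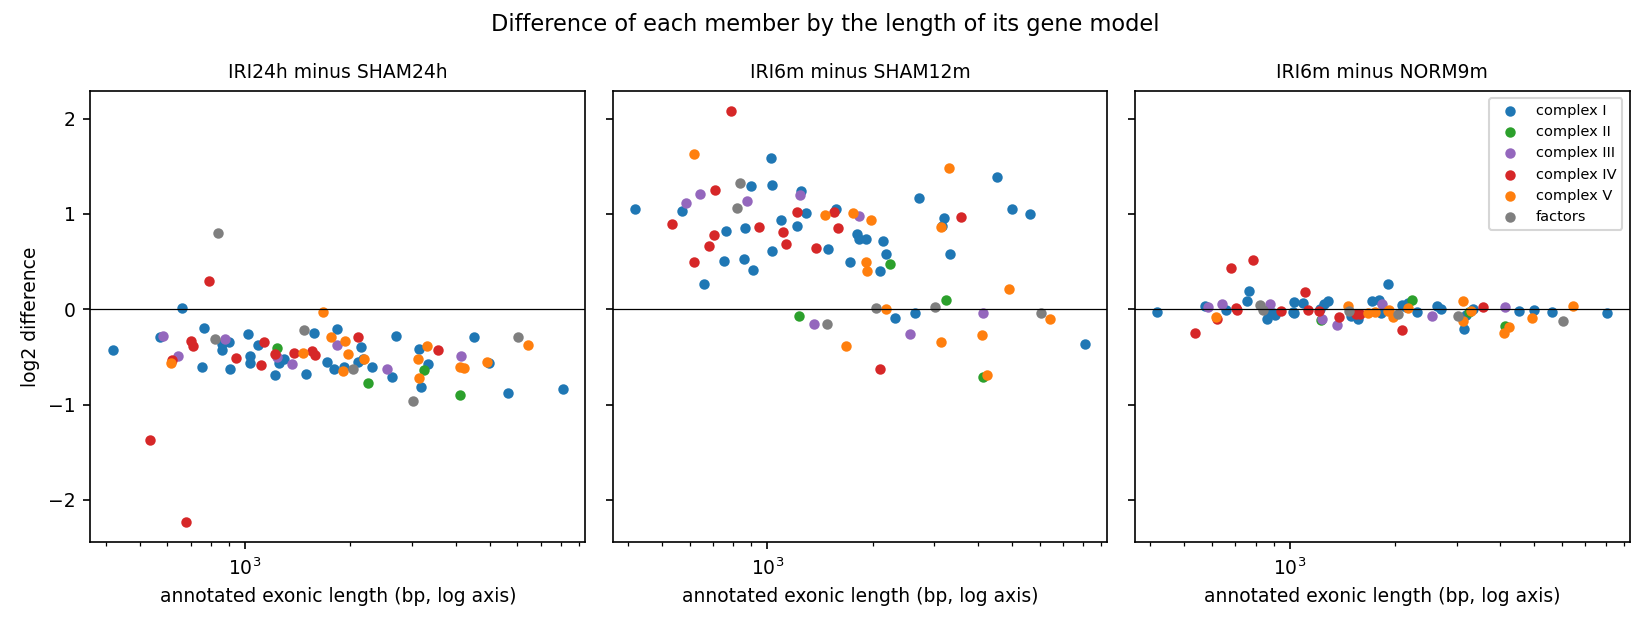
Log2 difference of each member (vertical axis) against annotated exon length in bp (horizontal axis, log scale) for IRI24h against SHAM24h, IRI6m against SHAM12m and IRI6m against NORM9m; points are members, coloured by complex. Short members lie high and long members near 0 or below only against SHAM12m, where the medians run from 0.96 under 1000 bp to −0.04 over 4000 bp.

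Against NORM9m, kidneys of a like age and depth without surgery, 0 members were higher and 0 lower at 6 months by limma (6.25% and 2.07% of all genes), and the members' median was −0.02. Not being called does not show equal levels. Atp5k was at 441, 462 and 430 FPKM in NORM9m (log2 −0.08, limma adjusted p = 0.86), Sdha at 239, 246 and 230 FPKM (log2 −0.17, limma adjusted p = 0.52) and Cox4i2 at 1.36, 2.36 and 1.88 FPKM (log2 0.51, limma adjusted p = 0.34), and in all 3 the groups overlapped. At 12 months, against SHAM12m of the same depth set, 0 members were called in either direction by limma (8.44% of all genes higher, 0.369% lower, members' median 0.10). Sdha was at 300, 338 and 328 FPKM against 342, 353 and 342 FPKM (log2 −0.10, limma adjusted p = 0.84). Against NORM15m, of the lower depth set, 51 members were lower and 3 higher (10.5% of all genes lower and 20.9% higher). The members' median was −0.51 there, against 0.14 for all genes. Among kidneys without surgery, 41 members were higher and 0 lower at 9 months than at 3 months of age (8.80% of all genes higher and 4.65% lower, members' median 0.40), and at 15 months 4 were higher and 0 lower (5.47% and 3.44%). The balance of short against long genes differed here too, with −1.07 to −0.67 in NORM3m and −0.40 to −0.30 in NORM9m, and the members' median was 0.44 under 1000 bp and 0.06 over 4000 bp. Its part in the 41 calls was not tested.

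Genes that build the complexes were counted in the same comparisons, in which the shares of all genes called lower were 15.4% at 24 hours, 23.1% at 48 hours and 23.1% at 72 hours, and those called higher 32.5%, 28.5% and 25.4%. Of 13 assembly factors of complex I, 6 were lower and 1 higher at 24 hours (median −0.27), 5 lower at 48 hours (−0.21) and 10 lower at 72 hours (−0.48). Of 18 assembly factors of complex IV, 2 were higher and 1 lower at 24 hours, 2 higher and 3 lower at 48 hours, and 11 lower at 72 hours (median −0.35). At 48 hours the complex I factors Acad9 (log2 −0.77), Ecsit (−0.57) and Ndufaf4 (−0.52), the copper chaperone Cox17 (−0.82) and the heme A synthase Cox15 (−0.60) were lower, as were Lyrm7 (−0.64) and Bcs1l (−0.55), which insert the Rieske protein, and Tmem70 (−0.37) of complex V. With both early sham groups as the control, the calls of Cox17 (limma adjusted p = 0.143), Lyrm7 (0.337) and Bcs1l (0.285) were lost, those of Cox17 and Bcs1l also with NORM controls, and that of Ndufaf4 was lost without IRI48h replicate 1 or 3. Cox16 was higher by 0.48, a call lost without 4 of the single kidneys and under several other settings. Cox17 and Lyrm7 were genes of low level, with means of 0.273 and 1.41 FPKM in IRI2h and 0.556 and 1.05 FPKM in IRI4h. The difference between assembly factors and subunits was not tested.

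Several known activators of these genes were lower than in SHAM24h at 24 and at 48 hours, and part of these calls depended on the control. Ppargc1a was at 7.71 ± 0.91 FPKM in IRI24h and 14.7 ± 0.96 FPKM in SHAM24h (SD, n = 3, log2 −0.93, limma adjusted p = 0.0040), and at 48 hours it was at 6.80 ± 0.53 FPKM (log2 −1.10, limma adjusted p = 0.00071). Ppargc1b, its relative, differed by −0.51 at 24 hours (not called, limma adjusted p = 0.056) and by −1.21 at 48 hours. Esrra differed by −0.71 and −0.51, where the second call was lost without single kidneys, Esrrb by −1.62 and −0.67, and Esrrg was called at 48 hours (−0.71). Esrrb was the 1 regulator higher at 48 than at 24 hours (log2 0.95). The 48-hour calls of Esrrb and Esrrg were lost without IRI48h replicate 2. Polrmt, the mitochondrial RNA polymerase, differed by −0.25 and −0.68, and its 24-hour call was lost without single kidneys, as was that of Gabpb1. With NORM controls Esrra was called at neither time (limma adjusted p = 0.803 and 0.555). Ppargc1b and Polrmt were then not called at 48 hours (limma adjusted p = 0.06 and 0.687). Polrmt was then higher at 24 hours (log2 0.38, limma adjusted p = 0.0015). With both early sham groups as the control, Esrra at 48 hours and Polrmt at 24 hours were not called (limma adjusted p = 0.188 and 0.682). In the other direction Pprc1, a growth-responsive relative of Ppargc1a, was at 11 ± 1.33 FPKM in IRI24h against 3.71 ± 0.36 FPKM (log2 1.54, limma adjusted p = 3.0e-07), and Gabpb1 was higher at 24 hours (0.39) and Nrf1 at 48 hours (0.37). Tfam, which packages mitochondrial DNA, was not called at 24 hours (log2 −0.28, limma adjusted p = 0.086). Its 24-hour difference was called with NORM controls, after quantile normalization, in the fit of the 2 groups alone and with both early sham groups. The others, Gabpa, Yy1, Tfb1m, Tfb2m, Nrip1 and Ppara, were called neither at 24 nor at 48 hours. Of the 16 regulators listed, 2 were higher and 4 lower at 24 hours and 1 was higher and 6 lower at 48 hours, beside 32.5% higher and 15.4% lower of all genes at 24 hours and 28.5% and 23.1% at 48 hours.

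Proximal tubule markers were still low at 48 hours. At 48 hours 7 of the 10 were lower than in SHAM24h (23.1% of all genes lower, median −1.23, summed level 2303 to 2508 FPKM). Among them were Slc22a8, an organic anion transporter (log2 −2.38), and the endocytic receptors Lrp2 (−2.29) and Cubn (−1.70). Between 24 and 48 hours 3 of the 10 were higher and 1 lower (7.88% and 17.1% of all genes). The summed level rose from 1608 to 1959 FPKM to the values above. Thick ascending limb markers summed to 1340 to 1547 FPKM at 48 hours, after 993 to 1229 FPKM. Fibroblast markers summed to 637 to 904 FPKM at 48 hours, after 326 to 447 FPKM, with replicate 2 the lowest, and 1 of the 6 was called higher between these times. The part of these cells in the members' levels was not tested. Outside the naming rule, cytochrome c (Cycs, log2 0.61), the ATPase inhibitor Atpif1 (0.43), the ATP synthase partner Usmg5 (0.42) and Ndufa4l2, a hypoxia-induced relative of Ndufa4 (0.66), were higher than in SHAM24h at 48 hours, and the calls of Atpif1, Usmg5 and Ndufa4l2 were lost without IRI48h replicate 2. Those of Cycs, Atpif1 and Usmg5 were lost with both early sham groups as the control (limma adjusted p = 0.0972, 0.294 and 0.489). Atpif1 was also not called in the fit of the 2 groups alone (limma adjusted p = 0.11).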

How the data were processed

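RNA of whole kidneys was measured in 49 libraries of 16 groups, taken from the sample labels. Per the labels and the methods of the study, the authors made unstranded poly(A) libraries (TruSeq v2, paired reads of 100 cycles on a HiSeq instrument), aligned them with STAR 2.5.0b to mm10 (GRCm38.p3, GENCODE M4), removed duplicates and tested with DESeq2. The deposited values are FPKM, which the authors computed for 43309 genes, with no read counts, and the tool that made the FPKM is not given in the sources used here. FPKM divides by gene length and library total, so a level depends on the gene model and on the rest of the library.

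The log2(FPKM + 0.1) values of the 14895 genes with at least 1 FPKM in at least 3 libraries were fitted with limma 3.58.1 in R 4.3.3, in 1 model of all 16 groups, with empirical Bayes moderation (trend and robust). The Benjamini-Hochberg adjustment covered all genes tested, separately in every comparison. The control was SHAM4h up to 4 hours, SHAM24h from 24 hours to 28 days, and SHAM12m at 6 and 12 months. Tables and plots were made with Python 3.11.15, numpy 2.4.6, pandas 2.3.3 and matplotlib 3.10.9. The test was tested on simulated data before use.

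Depth was recovered from whole multiples of the lowest FPKM and exon lengths of GENCODE M21. It was 10400000 to 88200000 reads, and counting error is larger in the shallower libraries. Exons of 28 of the 83 members overlap another gene, by over 20% of their length in 3 (Atp5o, Ndufb6 and Ndufa13), and reads from genes with processed pseudogenes may be split.

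The members and all lists were chosen with earlier results of these data known. The genes named were, per complex, the 4 with the largest and the 2 with the smallest difference at 48 hours, the tissue isoforms, members higher by a log2 difference of 1 or more at any time, the 3 leading genes of each other list and all regulators called. Further genes were named after their values were seen, to show members over time. Alternatives were quantile normalization, rescaling to the protein-coding sum, no filter, a pseudocount of 1, NORM controls, the 2 groups alone, a replicate block and leaving out each library in turn. SHAM4h and SHAM24h together as control, and the alternatives for IRI48h against IRI24h, were added after the data were seen.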

Additional observations from a re-analysis of the deposited data

Results flagged for a closer look

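In IRI6m, the only group of more than 3 libraries, each of the 83 members was examined for a library far from the others. Ndufa4, the subunit found with complex IV, was the only one past the limit (Dixon's ratio 0.835), with 1106 FPKM in IRI6m replicate 1 below the other 3 libraries. By chance about 1 gene in 20 would be marked.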

How the results depend on the processing

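With single libraries left out 52 to 56 members were lower at 24 hours, and no setting moved the count of 62 by over 1.5 times. With NORM kidneys as the control, which lie in another depth set than all IRI groups but IRI6m, the counts were 23 lower and 9 higher at 2 hours, 29 lower and 4 higher at 4 hours, 31 lower at 48 hours, 43 lower and 6 higher at 72 hours, 53 lower and 5 higher at 7 days, 50 lower and 5 higher at 14 days, 46 lower and 3 higher at 28 days, none (0 and 0) at 6 months, and 51 lower with 3 higher at 12 months, and 2 were higher at 24 hours. In fits of the 2 groups alone, 5 were lower and 1 higher at 2 hours, 12 lower at 72 hours, 34 lower at 7 days, 1 higher at 12 months, 8 of complex III lower at 24 hours, and 6 of complex IV higher between 24 and 48 hours. Quantile normalization gave 11 higher at 2 hours, 4 higher at 4 hours, 37 lower at 7 days, 16 lower at 6 months and 3 of complex III higher between 24 and 48 hours. Rescaling to the protein-coding sum gave 17 higher at 2 hours, 5 higher at 4 hours, 32 lower at 7 days, 18 lower at 6 months and 8 of complex III lower at 24 hours. Without the filter 1 was higher at 4 hours, 1 higher at 7 days, 1 higher at 14 days and 4 of complex III between 24 and 48 hours. With both early sham groups as the control 6 were lower and 0 higher at 4 hours, 31 lower at 72 hours, 38 lower at 7 days, 45 lower at 28 days and 8 of complex III lower at 24 hours. A pseudocount of 1 moved none of these counts by over 1.5 times. Except for NORM controls at 6 and 12 months, the share of all genes called under each setting is not given here. The same holds for the counts with single libraries left out. Whether these counts exceed such a share was not tested.

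With single libraries left out, counts ranged from 1 to 9 higher at 2 hours, 3 to 17 lower and 0 to 1 higher at 4 hours, 4 to 12 higher at 48 hours, 14 to 34 lower at 72 hours, 1 higher at 7 days, 18 to 25 lower and 0 to 2 higher at 14 days, 12 to 35 lower and 0 to 1 higher at 28 days, and 32 to 67 higher between 24 and 48 hours. For that rise the ranges were 13 to 32 in complex I, 2 to 6 in complex III, 5 to 11 in complex IV, 8 to 13 in complex V and 1 to 2 factors, and 2 to 3 factors were lower at 24 hours. Same-numbered kidneys did not vary together (correlations −0.18 to 0.17), so the numbers pair no samples, and with a replicate block the count of members lower at 24 hours was 62, no call of a named gene changed and no count moved by over 1.5 times.

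Signs of the following differences turned under other settings, and the cause was not tested. With NORM controls these were at 24 hours Ndufb6 (−0.040), Cox6b2 (0.34), Cox5a (0.18), Atp5g2 (0.66), Ppargc1b (0.20) and Polrmt (0.38), at 48 hours Ndufa8 (−0.12), Uqcr11 (−0.25), Cox8a (−0.12), Cox7b (−0.55), Atp5d (−0.062), Atp5o (−0.35), Uqcc3 (−0.32), Esrra (0.14), Atpif1 (−0.40), Usmg5 (−0.18), Cox6b1 (−0.37) and Cox7a2 (−0.28), at 14 days Cox7a1 (−0.57), at 28 days Cox6b2 (0.33), at 6 months Atp5k (−0.080), Ndufa3 (−0.028), Atp5j2 (−0.019), Ndufb7 (−0.015), Cox4i1 (−0.047) and Cox7a1 (−0.25) and at 12 months Sdha (0.31). With both early sham groups they were at 24 hours Ndufb6 (−0.094) and Cox6b2 (0.16), at 48 hours Ndufb10 (0.20), Uqcr11 (−0.11), Uqcrfs1 (−0.031), Cox8a (−0.11), Cox7b (−0.31) and Cox7a2 (−0.22) and at 28 days Cox6b2 (0.15). After quantile normalization they were at 24 hours Atp5g2 (0.047) and Nrf1 (−0.022), at 48 hours Ndufa8 (−0.023), Sdhc (−0.11), Uqcr11 (−0.070), Uqcrfs1 (−0.14), Cox7b (−0.055), Atp5d (−0.13), Atp5o (−0.14), Uqcc3 (−0.029) and Cox7a2 (−0.13) and between 24 and 48 hours Atp5b (−0.021). After rescaling they were at 48 hours Ndufa8 (−0.058), Sdhc (−0.059), Uqcr11 (−0.024), Uqcrfs1 (−0.014), Cox8a (−0.055), Cox7b (−0.055), Atp5d (−0.052), Atp5o (−0.045), Uqcc3 (−0.028), Cox6a1 (−0.0013) and Cox7a2 (−0.028). With single libraries left out, differences ran at 24 hours over Ndufb6 −0.025 to 0.056 and Atp5g2 −0.056 to 0.014, and at 48 hours over Ndufb10 −0.14 to 0.082, Ndufa8 −0.13 to 0.093, Sdhb −0.18 to 0.010, Sdhc −0.16 to 0.11, Uqcr11 −0.16 to 0.21, Uqcrfs1 −0.090 to 0.15, Cox8a −0.16 to 0.14, Cox7b −0.090 to 0.094, Atp5d −0.089 to 0.11, Atp5o −0.085 to 0.13, Uqcc3 −0.065 to 0.13, Cox4i1 −0.20 to 0.10, Cox6a1 −0.069 to 0.19, Cox6b1 −0.011 to 0.37 and Cox7a2 −0.12 to 0.17. Depth limits the NORM and IRI6m libraries most.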
